A study of Mus musculus with 16 samples.

Results

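The 10 genes described here cut, protect or crosslink the extracellular matrix, and they were measured in the contralateral mammary fat pad of 16 mouse libraries: the matrix metalloproteinases Mmp2, Mmp3, Mmp9 and Mmp14, the tissue inhibitors of metalloproteinases Timp1, Timp2, Timp3 and Timp4, and the lysyl oxidases Lox and Loxl1. They were taken by name from the 23179 genes of the table, 10 of 10 were found, and 10 of 10 passed the filter on low values that left 21218 genes for testing. The libraries came from wild-type female mice (C57BL/6N in the labels, C57BL/6NCrl in the study's methods) that arrived at 8 weeks of age and fell into 4 groups of 4. CON-LFD mice ate the low-fat diet D12450J throughout. DIO-HFD mice were made obese on the 60% fat diet D12492 and stayed on it. DIO-LFD mice were made obese and then switched to low-fat diet, and DIO-VSG mice were made obese and then had a vertical sleeve gastrectomy (removal of most of the stomach) with low-fat diet. Every mouse without gastrectomy had sham surgery, so all 4 groups went through an operation, and every mouse carried an E0771 mammary tumor: the cells were injected into the 4th fat pad 22 weeks after the first randomization, and the 9th fat pad on the other side was sequenced at the end. The labels also list E0771 and mammary cancer as the cell line and cell type of these libraries, although the tissue is the uninjected pad, and no tumor-free mouse is among them.

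Metalloproteinases are zinc enzymes made as inactive precursors that together cut most matrix proteins. Mmp2 and Mmp9 encode gelatinases, which cut denatured collagen and basement membrane collagen IV, Mmp3 encodes stromelysin-1, which cuts proteoglycans and activates other precursors, and Mmp14 encodes a membrane-bound enzyme that cuts fibrillar collagen and activates the Mmp2 precursor in a complex with the Timp2 protein. The 4 inhibitors bind active metalloproteinases tightly; the Timp3 protein is itself held in the matrix and also inhibits ADAM and ADAMTS proteases. Lysyl oxidases work the other way, oxidizing lysines of collagen and elastin so that fibers become crosslinked. Fat pads remodel this matrix as adipocytes enlarge and shrink, and the adipose matrix is made largely by stromal cells.

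Library depth was 46907377 to 57610899 recovered reads, and the member with the fewest reads, Timp1, still had 52 in its lowest library. The labelled tissue was checked against 10 marker lists. The adipocyte gene Adipoq, which encodes adiponectin, was at 30428 to 123530 normalized counts over the 16 libraries and the epithelial keratin gene Krt8 at 6468 to 36653, while the milk protein gene Csn2 was low (mean 19.9, highest 87.9) and at 0 in CON-LFD replicate 2 and DIO-HFD replicate 3. Csn3, another listed milk protein gene, was higher (mean 1700, range 513 to 4204). B cell genes were uneven between libraries, and in mice a lymph node lies in this pad. The B cell score, the mean log2 deviation of 10 markers from their 16-library means, was -5.77 in CON-LFD replicate 2, -4.01 in CON-LFD replicate 4, -2.48 in DIO-HFD replicate 2 and -4.49 in DIO-HFD replicate 3, and -0.14 to 2.38 in the other 12 libraries, with DIO-VSG at 1.84 to 2.06. The group comparisons below are therefore also given in those 12 libraries, which leaves 2 in CON-LFD and 2 in DIO-HFD. In bulk tissue, fewer cells of a type and less RNA per cell cannot be told apart.

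The genes are spread over 9 chromosomes, and the positions below are those of GENCODE M21 on GRCm38, the assembly named mm10 in the submitters' notes. Mmp2 lies at chr8:92827291-92853420, Mmp3 at chr9:7445822-7455975, Mmp9 at chr2:164940780-164955850 and Mmp14 at chr14:54431612-54445364, all on the plus strand. Timp1 (chrX:20870166-20874735, plus strand), Timp3 (chr10:86300372-86349506, plus strand) and Timp4 (chr6:115241892-115252205, minus strand) each lie inside a synapsin gene on the opposite strand: Syn1, Syn3 and Syn2. Timp2 lies at chr11:118301069-118355740 on the minus strand and contains the gene Cep295nl on the same strand. Loxl1 lies at chr9:58287738-58313186 on the minus strand, and the position of Lox is given with its values. The library kit keeps strand, but whether the counting used it is not given in the sources used here. Mean levels of the synapsin genes were 93.2 normalized counts for Syn1, 90.3 for Syn3 and 1782 for Syn2, and over the 16 libraries Pearson's r on the log2 scale, a description, was 0.65 between Syn1 and Timp1, 0.51 between Syn3 and Timp3 and 0.06 between Syn2 and Timp4.

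The RefSeq promoter table of GRCm38.p6 held 6 of the 10 genes. For a view of how differently these genes start, the bases before the start of Mmp3, Timp3 and Timp4 are shown 5′ to 3′ on the gene's strand, since Timp3 and Timp4 had the lowest P values below and Mmp3 is the secreted protease of the set with a sequence in the table. Capitals mark each CG pair and each match on either strand to an AP-1 site (TGANTCA) or a TATA box (TATAAA). The Mmp3 run is chr9:7445572-7445821 (250 bases, plus strand), the Timp3 run is chr10:86300162-86300371 (210 bases, plus strand, ending before the GENCODE start) and the Timp4 run is chr6:115252206-115252455 (250 bases, minus strand).
Mmp3: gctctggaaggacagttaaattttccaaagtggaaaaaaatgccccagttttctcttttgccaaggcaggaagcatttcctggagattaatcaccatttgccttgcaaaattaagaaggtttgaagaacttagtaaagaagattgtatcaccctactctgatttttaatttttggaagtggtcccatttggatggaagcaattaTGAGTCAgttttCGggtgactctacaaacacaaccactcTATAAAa
Timp3: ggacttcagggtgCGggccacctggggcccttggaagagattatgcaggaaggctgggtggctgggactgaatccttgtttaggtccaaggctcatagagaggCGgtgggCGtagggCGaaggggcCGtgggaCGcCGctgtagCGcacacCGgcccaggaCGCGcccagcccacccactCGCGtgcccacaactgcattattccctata
Timp4: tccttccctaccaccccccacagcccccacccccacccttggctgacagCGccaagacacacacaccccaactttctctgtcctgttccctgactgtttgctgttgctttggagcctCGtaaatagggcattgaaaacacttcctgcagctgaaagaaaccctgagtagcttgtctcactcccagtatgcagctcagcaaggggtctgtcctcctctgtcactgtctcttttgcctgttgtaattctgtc

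The Mmp3 run held 1 AP-1 match and 1 TATA match. Of 32841 promoters of the table, 6.75% held such an AP-1 match in the 250 bases before the start and 12.4% a TATA match, and no other member among the 6 held either. The 250 bases of Mmp3 had 1 CG pair and 37.6% G or C, and those of Timp4 had 2 CG pairs and 53.6% G or C. In the 250 bases before its RefSeq start Timp3 had 18 CG pairs and 65.6% G or C, with 13 of the pairs in the 210 bases shown. The 250 bases of Timp2 had 21 CG pairs and 68.0% G or C, but they lie wholly past its GENCODE start. The median over all promoters was 6.00 CG pairs. A match describes letters and not a bound site.

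Compared per kilobase of merged exons, so that genes of unequal length can be ordered, Timp2 (mean 4955 ± 2285 normalized counts per kb, SD, n = 16) and Timp3 (4027 ± 1037) were the highest and Mmp2 (2694 ± 1396) was the highest protease. Loxl1 (1352 ± 793), Lox (1230 ± 870), Mmp14 (1088 ± 338), Mmp3 (1062 ± 518) and Timp4 (954 ± 771) followed. The means of these 5 neighbors lay within each other's spread over libraries, and no paired test between genes was run. Mmp9 (169 ± 95.4) and Timp1 (166 ± 100) were the lowest and also lay within each other's spread. The fat pad inhibitor transcripts were thus mostly Timp2 and Timp3: of the summed per-kb level of the 4 inhibitors, Timp2 made up a median of 47.7% (range 28.3 to 63.5%), Timp3 42.0% (29.9 to 60.5%), Timp4 6.86% (4.49 to 29.6%) and Timp1 1.31% (0.712 to 4.37%). Of the 4 proteases, Mmp2 made up 52.6% (44.1 to 59.2%), Mmp14 22.4% (15.1 to 32.3%), Mmp3 21.6% (15.2 to 26.1%) and Mmp9 2.89% (2.06 to 7.37%).

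**Figure D1:**
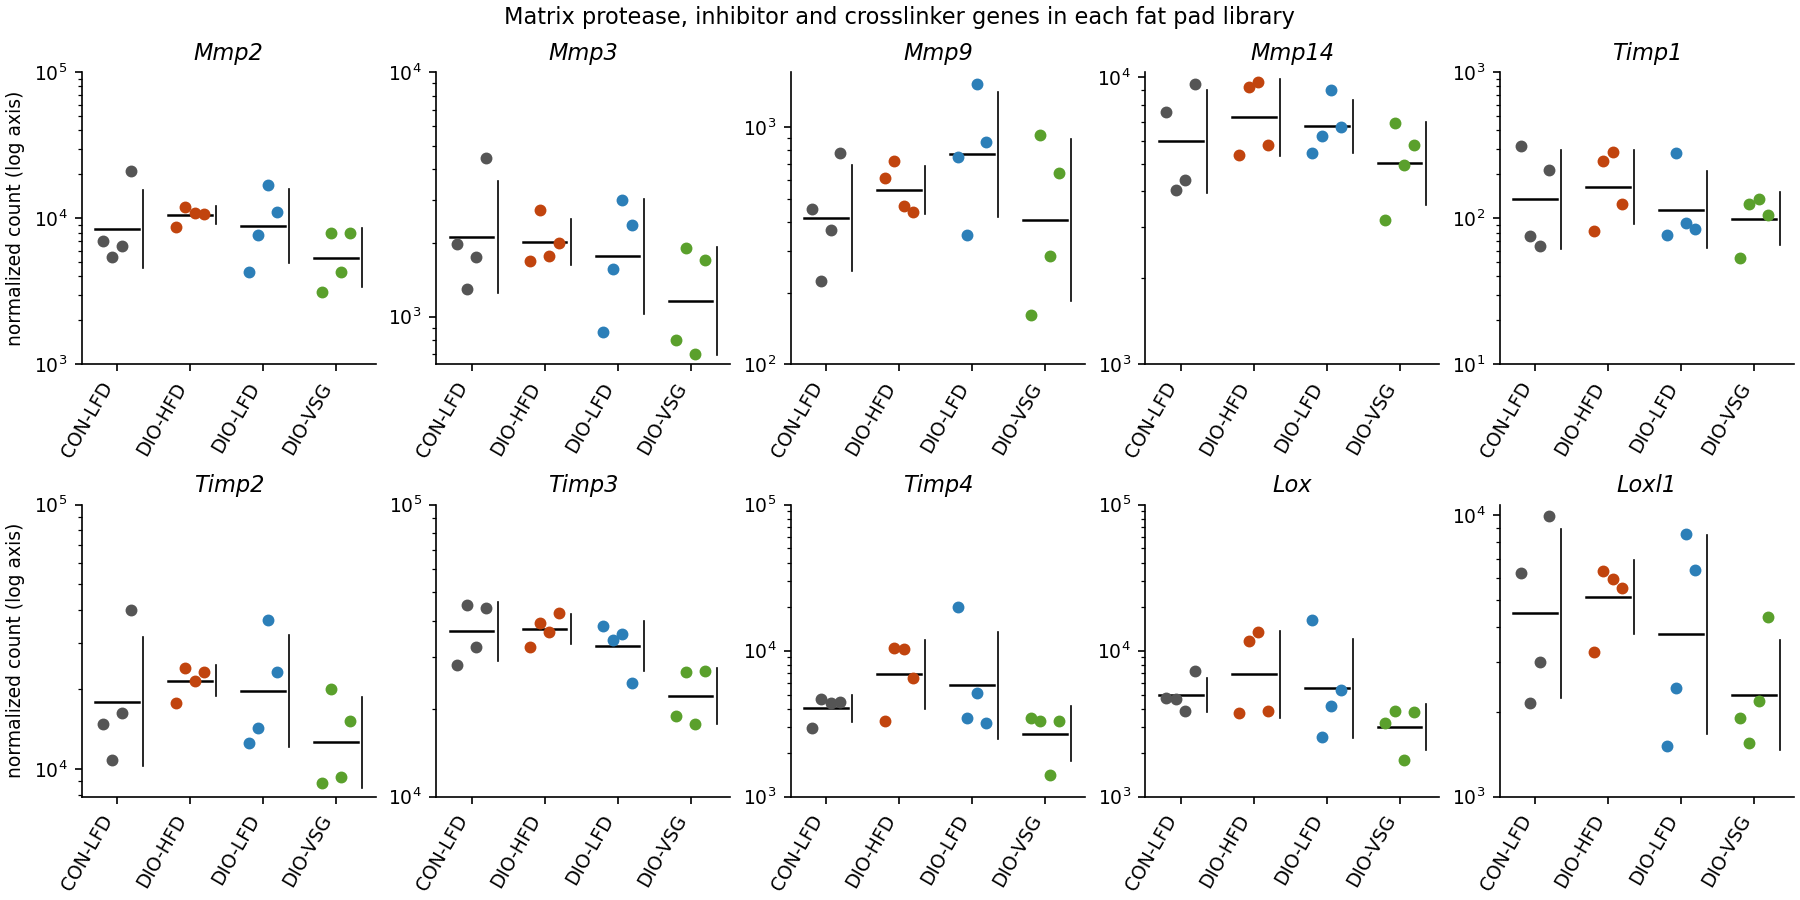
Normalized count (log axis) of each of the 10 genes in each library, by group, with points in replicate order, a horizontal bar at the mean of the log2 values and a vertical line of 1 SD to each side (n = 4). Timp3 in DIO-VSG lies below CON-LFD and DIO-HFD without overlap (17753 to 26908 against 28227 or more), while a single DIO-LFD library carries the highest Timp4 (19868) and Lox (16184).

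The spread between libraries was gene-specific, also within groups. From the lowest to the highest replicate of a group Timp3 ranged 1.32-fold to 1.61-fold, Mmp14 1.66-fold to 2.33-fold, Lox 1.89-fold to 6.32-fold and Timp4 1.58-fold to 6.20-fold, depending on the group. From the lowest to the highest of the 16 libraries, group differences included, Timp3 ranged 2.56-fold, Mmp14 3.01-fold, Timp2 4.52-fold, Timp1 5.83-fold, Mmp3 6.35-fold, Loxl1 6.54-fold, Mmp2 6.70-fold, Lox 9.09-fold, Mmp9 9.40-fold and Timp4 14.1-fold. Within DIO-HFD the coefficient of variation was 11.5% for Timp3 and 13.1% for Mmp2, but 45.0% for Timp4 and 62.1% for Lox. In DIO-LFD it was 101% for Timp4 and 87.3% for Lox, where replicate 1 stood far above the rest.

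Among the proteases, counts of Mmp2, normalized, in replicates 1 to 4 were 7007, 5414, 6436 and 21002 in CON-LFD, 8680, 11988, 10939 and 10764 in DIO-HFD, 4280, 7692, 16871 and 11016 in DIO-LFD, and 3136, 7885, 4274 and 7938 in DIO-VSG. The highest of the DIO-VSG libraries lay below the lowest of the DIO-HFD libraries, and DIO-VSG overlapped both other groups. Mmp3 was at 1978, 1294, 1753 and 4474 in CON-LFD, 1692, 2731, 1763 and 2004 in DIO-HFD, 866, 1572, 3001 and 2365 in DIO-LFD, and 801, 1904, 704 and 1696 in DIO-VSG. CON-LFD replicate 4 was the highest library for both genes, and the groups overlapped for Mmp3.

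Mmp9, a gelatinase known from macrophages and neutrophils, was at 450, 224, 370 and 781 normalized counts for CON-LFD, 609, 717, 464 and 437 in DIO-HFD, 750, 351, 1521 and 868 in DIO-LFD, and 162, 922, 285 and 642 in DIO-VSG. DIO-VSG held both the lowest library and one of the highest, so its range covered that of DIO-HFD. Mmp14 was at 7544, 4059, 4400 and 9474 in CON-LFD, 5349, 9231, 9601 and 5782 in DIO-HFD, 5452, 6262, 9040 and 6703 in DIO-LFD, and 3186, 6899, 4947 and 5784 in DIO-VSG. The 4 groups overlapped for this membrane protease.

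Among the inhibitors, Timp1 (normalized counts) was at 315, 75.3, 64.6 and 215 for CON-LFD, 81.4, 247, 285 and 126 in DIO-HFD, 77.5, 281, 93.4 and 84.8 in DIO-LFD, and 53.9, 125, 135 and 106 in DIO-VSG. In CON-LFD and DIO-HFD a pair of libraries lay high and a pair low, and in DIO-LFD replicate 2 stood alone. Timp2 was at 14740, 10798, 16287 and 40031 in CON-LFD, 17844, 24196, 21433 and 23339 in DIO-HFD, 12530, 14306, 36533 and 23348 in DIO-LFD, and 8865, 20130, 9334 and 15145 in DIO-VSG. Its highest libraries, CON-LFD replicate 4 and DIO-LFD replicate 3, were also the highest for Mmp2.

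Timp3, the matrix-bound inhibitor, was at 28227, 45423, 32448 and 44206 normalized counts for CON-LFD, 32444, 39319, 36562 and 42676 in DIO-HFD, 38354, 34335, 36005 and 24559 in DIO-LFD, and 18824, 26749, 17753 and 26908 in DIO-VSG. The 4 DIO-VSG libraries were below the 8 CON-LFD and DIO-HFD libraries, and 1 DIO-LFD library, replicate 4, fell within the DIO-VSG range. Timp4, the inhibitor with the most restricted expression of the family, was at 2949, 4661, 4400 and 4415 in CON-LFD, 3276, 10454, 10265 and 6471 in DIO-HFD, 19868, 3451, 5089 and 3207 in DIO-LFD, and 3434, 3306, 1405 and 3276 in DIO-VSG. In DIO-VSG 3 values lay close together at the low end of the other groups and replicate 3 lay well below them.

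The crosslinking enzyme gene Lox, on chr18:52516067-52529867 (minus strand), was at 4712, 4656, 3849 and 7282 normalized counts for CON-LFD, 3726, 11613, 13347 and 3890 in DIO-HFD, 16184, 2560, 4195 and 5367 in DIO-LFD, and 3196, 3861, 1780 and 3796 in DIO-VSG. DIO-HFD replicates 2 and 3, both of low B cell score, and DIO-LFD replicate 1 were the highest libraries, as they were for Timp4. Loxl1, whose product acts mainly on elastic fibers, was at 6218, 2160, 3020 and 9916 in CON-LFD, 3273, 6350, 5944 and 5526 in DIO-HFD, 1515, 2430, 8598 and 6405 in DIO-LFD, and 1911, 1546, 2180 and 4343 in DIO-VSG. DIO-LFD replicate 1, the highest library for Lox, was the lowest for Loxl1.

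Sleeve gastrectomy was set against persistent obesity to ask how the pad differs after surgical weight loss. In DIO-VSG relative to DIO-HFD 10 of 10 genes had a lower mean log2 level, with a median log2 fold change of -0.78 against 0.02 over all tested genes. Mmp9 turned above 0 without DIO-VSG replicate 1 and with the stromal progenitor score as a covariate. Of the 10, 3 had an unadjusted P below 0.05, all lower in DIO-VSG, where 8.12% of all genes were lower and 5.05% higher at that threshold. Mmp2 and Timp3, 2 of the 10, had groups that did not overlap, lower in DIO-VSG, as did 4.22% of all genes. None of the 10 passed a Benjamini-Hochberg adjusted P of 0.05 over all tested genes by limma-trend, nor by limma-voom on the recovered reads, where again 3 had an unadjusted P below 0.05, and 0 of 21218 genes passed by limma-trend in this comparison. The same held for the 10 genes by both tools in the other 5 comparisons below, with limma-voom counts at an unadjusted P below 0.05 equal to those given.

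The Timp3 mean was 22558 ± 4950 normalized counts in DIO-VSG and 37750 ± 4332 in DIO-HFD (SD, n = 4 each). Its log2 fold change was -0.76 (SE 0.20, 95% interval -1.18 to -0.34, limma unadjusted P 0.00167, adjusted P 0.246). Timp4 averaged 2856 ± 969 against 7616 ± 3427, the largest difference of the 10 genes, at -1.36 (SE 0.53, interval -2.49 to -0.23, limma unadjusted P 0.0214, adjusted P 0.318). Lox averaged 3158 ± 967 against 8144 ± 5057, at -1.19 (SE 0.53, interval -2.33 to -0.04, limma unadjusted P 0.0428, adjusted P 0.369). The intervals of the other 7 genes included 0.

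The libraries of low B cell score bore unequally on these 3 genes. Without them (12 libraries), Timp3 was -0.75 (limma unadjusted P 0.00859), while Timp4 was -0.78 (P 0.276) and Lox -0.33 (P 0.579). Adding the B cell score to the fit of 16 libraries, the values were -0.63 for Timp3 (limma P 0.00738), -0.98 for Timp4 (P 0.0877) and -0.67 for Lox (P 0.192). Leaving out DIO-HFD replicate 3 alone gave -0.87 for Lox (limma P 0.139), leaving out DIO-HFD replicate 2 gave -0.94 (P 0.124) and leaving out DIO-VSG replicate 3 gave -0.93 (P 0.125). Lox also had a limma P above 0.05 without CON-LFD replicate 1 (0.0513), CON-LFD replicate 2 (0.0508), DIO-LFD replicate 4 (0.0512) or DIO-VSG replicate 1 (0.063), and with library weights it was -0.50 (P 0.132). The first 3 of these omissions left Timp4 at -1.17 (limma P 0.0618), -1.16 (P 0.0628) and -1.05 (P 0.0759), in that order. Timp3 stayed below an unadjusted P of 0.05 in 30 of 30 alternative settings of this comparison, with log2 fold changes of -0.95 to -0.63, unadjusted P of 1.53e-05 to 0.00859 and limma adjusted P of 0.00257 to 0.685. The part of lymph node content in the Timp4 and Lox values was not tested beyond these fits.

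**Figure D2:**
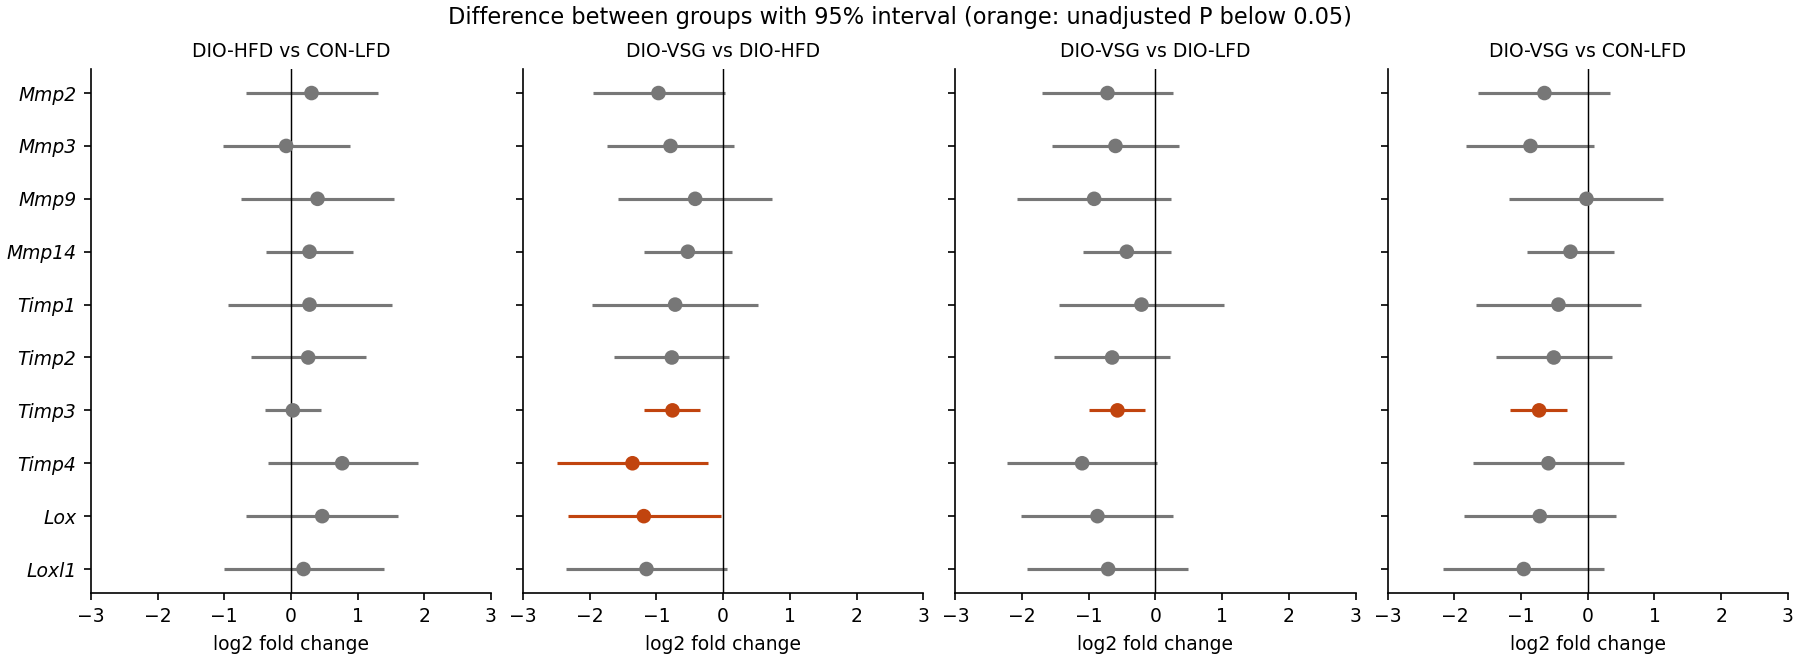
Log2 fold change of each of the 10 genes (point) with its 95% interval from limma (line) in 4 comparisons, as first-named minus second-named group, with orange marking an unadjusted P below 0.05. Timp3 is orange in each of the 3 comparisons with DIO-VSG, at -0.76, -0.57 and -0.73, Timp4 and Lox are in the first of them, and no gene is orange in DIO-HFD relative to CON-LFD.

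DIO-VSG was also lower than the other groups on average, in comparisons that share its 4 libraries. Relative to DIO-LFD, which asks how surgical differs from dietary weight loss, 10 of 10 genes had a lower mean log2 level, with a median log2 fold change of -0.68 against -0.02 over all genes. Timp1 turned above 0 without DIO-LFD replicate 2, without DIO-VSG replicate 1 and with the adipocyte score as a covariate. Timp3, 1 of the 10, had an unadjusted P below 0.05, where 5.41% of all genes were lower and 4.30% higher, and 0 of 10 were lower without overlap, against 5.83% of all genes. Timp3 averaged 33313 ± 6065 normalized counts in DIO-LFD, and its log2 fold change was -0.57 (SE 0.20, limma unadjusted P 0.0118, adjusted P 0.509, and 0.0944 to 0.999 over the alternatives). Timp4 had the largest difference, -1.10 (SE 0.53, limma unadjusted P 0.0542, adjusted P 0.51), and it was -0.51 without DIO-LFD replicate 1. The median of the 10 genes was -0.38 without DIO-LFD replicate 3 and -0.35 with the stromal progenitor covariate. In the 12 libraries of higher B cell score, which hold the 8 libraries of both groups, 10 of 10 were again lower (median -0.68), and Timp3 was at -0.57 (limma unadjusted P 0.0127).

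Relative to CON-LFD, mice that were never obese, 10 of 10 genes again had a lower mean log2 level in DIO-VSG, with a median of -0.62 against -0.02 over all genes. Mmp9 was at -0.02 there, although its mean count was higher in DIO-VSG (503 ± 346 against 456 ± 236), and it turned above 0 with the stromal progenitor score as a covariate, when libraries were scaled to their totals, with the deposited values or limma-voom, and with each of CON-LFD replicates 1 and 4 and DIO-VSG replicates 1 and 3 left out. Timp3, again 1 of the 10, had an unadjusted P below 0.05, where 7.55% of all genes were lower and 10.2% higher. It was also the 1 gene of the 10 whose groups did not overlap, lower in DIO-VSG, as were 4.43% of all genes. Timp3 averaged 37576 ± 8549 normalized counts for CON-LFD, and its log2 fold change was -0.73 (SE 0.20, limma unadjusted P 0.00223, adjusted P 0.268, and 0.0497 to 0.964 over the alternatives). In the 12 libraries of higher B cell score it was -0.45 (limma unadjusted P 0.0796). Loxl1 had the largest difference, -0.96 (SE 0.56, limma unadjusted P 0.109, adjusted P 0.351). The median of the 10 genes was -0.26 with the B cell covariate, where Lox also turned above 0, -0.29 with the adipocyte covariate, -0.38 with the stromal progenitor covariate and -0.36 without CON-LFD replicate 4.

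In the comparisons of obesity and of dietary weight loss no difference of these genes was larger than the spread between replicates by limma, adjusted or unadjusted. In DIO-HFD relative to CON-LFD 9 of 10 genes had a higher mean log2 level (median 0.28, all genes 0.02), and 0 of 10 had an unadjusted P below 0.05, where 5.23% of all genes were higher and 7.66% lower. Timp4 had the largest difference, 0.77 (SE 0.53, limma unadjusted P 0.164, adjusted P 0.57), which was 0.35 in the 12 libraries of higher B cell score and 1.27 with the adipocyte score as a covariate. In those 12 libraries 5 of the 10 genes had a higher mean log2 level in DIO-HFD (median 0.14), and with library weights 6 did (median 0.03). The median was 0.09 without CON-LFD replicate 2, 0.16 without replicate 3 and 0.61 without replicate 4 of that group, and 0.18 and 0.14 without DIO-HFD replicates 2 and 3. On the log2 scale Mmp3 was the exception at -0.07, while in mean normalized counts Loxl1 was also lower (5273 against 5328). Mmp3 turned above 0 without CON-LFD replicate 4 or DIO-HFD replicate 1 and when libraries were scaled to their totals. That scaling shifted the median log2 fold change of all genes by 0.14 here and by 0.11 in DIO-VSG relative to CON-LFD, and by less than 0.1 elsewhere.

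In DIO-LFD relative to DIO-HFD 9 of 10 genes had a lower mean log2 level (median -0.22, all genes 0.01), and 0 of 10 had an unadjusted P below 0.05, where 5.37% of all genes were higher and 3.16% lower. The direction depended on the setting: without DIO-LFD replicate 1, 4 of 10 genes were lower (median 0.00), with library weights 4 of 10 (median 0.02) and in the 12 libraries of higher B cell score 5 of 10 (median 0.07). The median was -0.07 without DIO-HFD replicate 2, -0.10 without DIO-LFD replicate 2 and -0.11 with the B cell covariate. Timp1 had the largest difference, -0.51 (SE 0.58, limma unadjusted P 0.389, adjusted P 0.914), and Mmp9 was the gene with a higher mean log2 level, at 0.49, while in mean normalized counts Timp4 was also higher in DIO-LFD (7904 against 7616). In DIO-LFD relative to CON-LFD 6 of 10 were higher and 4 lower in mean log2 level (median 0.10, all genes 0.02), and 0 of 10 had an unadjusted P below 0.05, where 3.23% of all genes were higher and 3.03% lower. Mmp9 had the largest difference, 0.89 (SE 0.54, limma unadjusted P 0.119, adjusted P 0.861), with means of 873 ± 486 and 456 ± 236 normalized counts. The direction of the 10 genes turned with single libraries here: 7 were lower without CON-LFD replicate 2 (median -0.08) and 6 without DIO-LFD replicate 3 (-0.14), 5 were lower without CON-LFD replicate 3 (-0.02) or DIO-LFD replicate 4 (0.02), and 8 were higher without CON-LFD replicate 4 (0.36). The median was 0.17 with the B cell covariate or without DIO-LFD replicate 2, 0.16 with library total scaling and 0.29 in the 12 libraries.

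Beyond the groups, the 10 genes sorted into sets that varied together from pad to pad. Given as a description over the 16 libraries, which share tissue composition, Mmp2 and Timp2 had a Pearson's r of 0.97 on the log2 scale (Spearman's rho 0.96) and Mmp2 and Mmp3 0.94 (rho 0.89). The Mmp2 and Timp2 value was 0.96 for deviations from group means and 0.95 without the 2 libraries farthest from the Mmp2 median. Mmp2 also followed Loxl1 (r 0.84) and Mmp14 (r 0.83). The ratio of Mmp2 to Timp2 counts stayed between 0.342 and 0.538 in the 16 libraries, although Mmp2 itself ranged 6.70-fold. By group the ratio averaged 0.474 ± 0.0564 in CON-LFD, 0.488 ± 0.0206 in DIO-HFD, 0.453 ± 0.0817 in DIO-LFD and 0.432 ± 0.0751 in DIO-VSG (SD, n = 4), a difference between groups that was not tested.

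Timp4 and Lox formed another pair. Their r was 0.88 over the 16 libraries (rho 0.60), 0.85 for deviations from group means and 0.77 without the 2 libraries farthest from the Timp4 median, while Timp4 had an r of 0.16 with Mmp2 and 0.26 with Timp2. The crosslinker genes Lox and Loxl1 had a lower r of 0.26 (rho 0.38), which was 0.01 for deviations from group means and 0.62 without the 2 libraries farthest from the Lox median, and their ratio ran from 0.488 in DIO-LFD replicate 3 to 10.7 in DIO-LFD replicate 1. Timp3 had its highest r among the members with Timp4 (0.66), and Timp1 with Mmp14 (0.72).

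**Figure D3:**
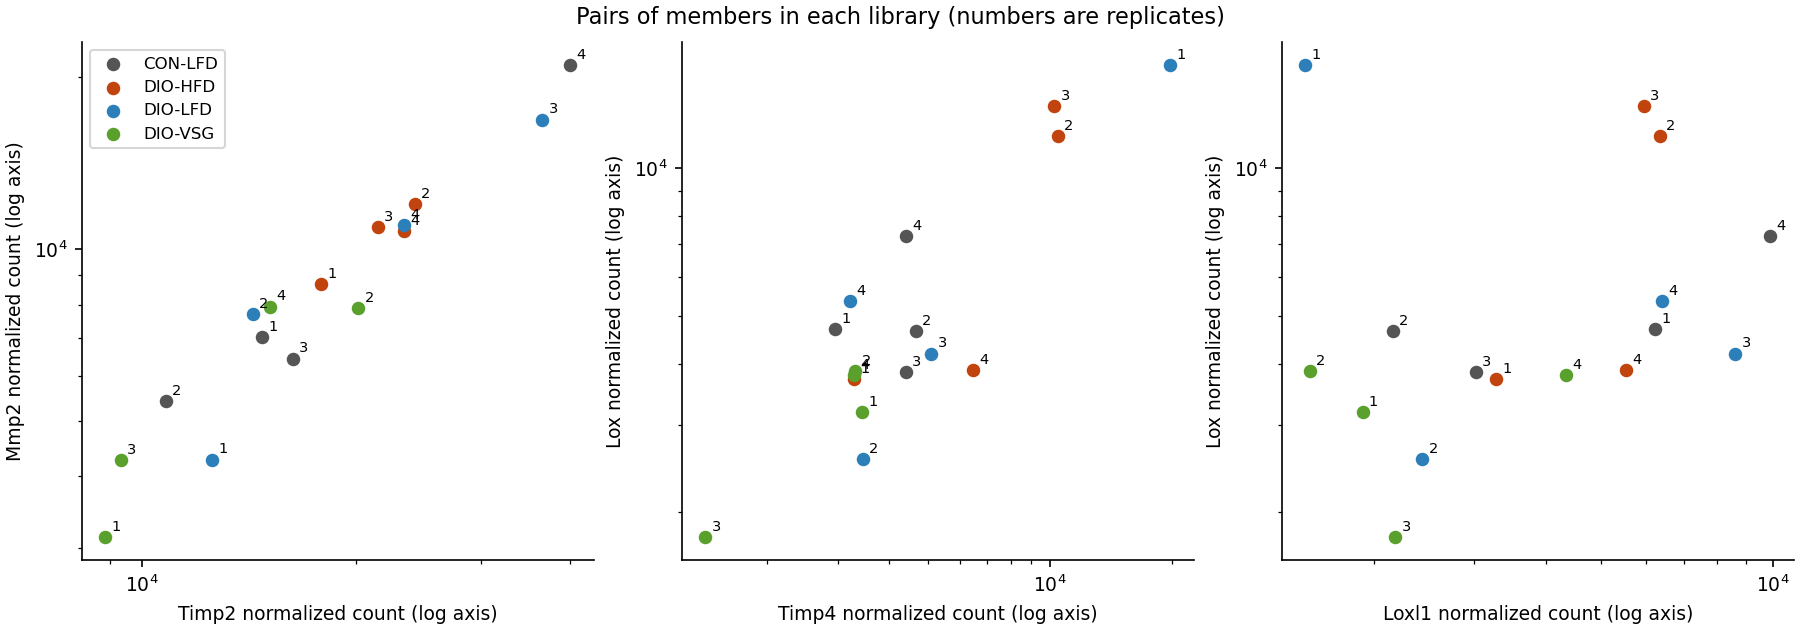
Normalized counts of Mmp2 against Timp2, Lox against Timp4 and Lox against Loxl1 (log axes), 1 point a library, colored by group and numbered by replicate. Mmp2 and Timp2 lie along a line (r 0.97), Lox and Timp4 rise together through DIO-HFD replicates 2 and 3 and DIO-LFD replicate 1 (r 0.88), and Lox and Loxl1 scatter more widely (r 0.26, and 0.62 without the 2 libraries farthest from the Lox median).

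Marker scores of cell types, built as the B cell score was, moved with these sets. The stromal progenitor score (10 markers including Pdgfra, Dpp4 and Pi16) had an r of 0.91 with Mmp2, 0.91 with Mmp3, 0.90 with Timp2 and 0.87 with Loxl1, and -0.07 with Timp4 and 0.04 with Lox. The endothelial score (8 markers including Pecam1 and Cdh5) had an r of 0.85 with Timp4 (rho 0.64) and 0.83 with Lox (rho 0.66). By rank, Lox had values farther from 0 with the B cell score (rho -0.83) and the adipocyte score (rho 0.79). The macrophage score (11 markers) had an r of 0.83 with Timp2, 0.76 with Mmp9 and 0.75 with Mmp2. Timp1 and Timp3 had no r above 0.70 with any of the 10 scores. For Timp3 the values farthest from 0 were -0.65 with the T cell score (rho -0.70) and -0.61 with the B cell score (rho -0.71), and for Timp1 -0.51 with the T cell score (rho -0.48).

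These scores also differed between groups, beside the member values above. The stromal progenitor score averaged 0.08 ± 0.62 in CON-LFD, 0.15 ± 0.29 in DIO-HFD, 0.03 ± 0.71 in DIO-LFD and -0.26 ± 0.31 in DIO-VSG, and the summed level of its 10 markers was 43911 to 64580 normalized counts in DIO-VSG and 55408 to 84514 in DIO-HFD. Its markers were split: relative to DIO-HFD, 7 of the 10 had a lower mean log2 level in DIO-VSG and 3 a higher one, Dpp4 among them (0.28). The endothelial score was -0.30 to -0.27 in the 4 DIO-VSG libraries and -0.21 to 0.63 in DIO-HFD, with summed marker levels of 47079 to 50296 and 53358 to 86914. CON-LFD overlapped DIO-VSG, with endothelial scores of -0.28, 0.34, -0.30 and -0.21 in replicates 1 to 4 and a summed marker level of 47243 to 69004. The macrophage score averaged -0.12 ± 0.86 in CON-LFD, 0.38 ± 0.16 for DIO-HFD, 0.11 ± 0.26 for DIO-LFD and -0.37 ± 0.72 for DIO-VSG, and its summed marker level was 33562 to 71497 normalized counts in DIO-VSG and 54697 to 68571 in DIO-HFD. The T cell score was 1.34 to 2.02 in DIO-VSG and -3.38 to 2.11 in DIO-HFD, and at -0.29 to 0.76 the DIO-LFD libraries lay below DIO-VSG without overlap. The same pair of groups did not overlap in the B cell score (-0.14 to 1.07 in DIO-LFD, 1.84 to 2.06 in DIO-VSG) or the endothelial score (-0.17 to 0.77 in DIO-LFD), and with the B cell covariate Timp3 was at -0.51 (limma unadjusted P 0.0167) and Timp4 at -0.93 (P 0.0826) in that comparison. The part of the endothelial score in these values was not tested. The neutrophil score was 0.06 to 2.88 in DIO-VSG, above CON-LFD (-2.06 to -0.24) without overlap, and -1.52 to 2.06 in DIO-HFD and -0.80 to 1.24 in DIO-LFD. The summed level of its 10 markers was 5587 to 12834 normalized counts in DIO-VSG and 2261 to 12829 for CON-LFD, and that of the 10 T cell markers 27150 to 42259 in DIO-VSG and 8673 to 18139 in DIO-LFD. Timp3, lower in DIO-VSG than in these groups, had an r of -0.30 with the neutrophil score, and the part of either score in its values was not tested. None of the stromal, endothelial, macrophage, B cell or T cell markers was at 0 in any library, and of the neutrophil markers Ly6g was at 0 in 3 libraries and Ngp in 1. The skeletal muscle score was 3.63 in CON-LFD replicate 4, the highest library for Mmp2, Mmp3 and Timp2, 5.55 in DIO-LFD replicate 4 and 2.95 in DIO-VSG replicate 2, and 0.32 or lower in the other 13. The keratinocyte score was 4.18 in DIO-HFD replicate 4 and 1.05 or lower elsewhere. Its summed marker level was 1197 to 1346 normalized counts in DIO-VSG, below CON-LFD (1510 to 3349), DIO-HFD (1405 to 14092) and DIO-LFD (1743 to 2215). The scores of DIO-VSG (-1.10 to -0.36) overlapped those of CON-LFD (-0.84 to 0.09) and DIO-LFD (-0.99 to 1.05). By rank this score followed Mmp2 (rho 0.71, r 0.44), Mmp3 (rho 0.69, r 0.38), Loxl1 (rho 0.68, r 0.41) and Timp2 (rho 0.64, r 0.41). The part of muscle or skin content in the member values was not tested. With the stromal progenitor score as a covariate, 9 of 10 genes were lower in DIO-VSG than in DIO-HFD and the median was -0.51, with Mmp9 the exception. The genes that follow that score moved toward 0, Mmp2 to -0.47, Mmp3 to -0.31, Timp2 to -0.34 and Loxl1 to -0.57 from -0.97, -0.79, -0.77 and -1.15, as did Mmp14 (-0.53 to -0.29, r 0.68 with the score) and Timp1 (-0.72 to -0.56, r 0.31), while Timp3 stayed near its value at -0.75 and Timp4 (-1.56) and Lox (-1.28) lay farther from 0. With the adipocyte score as a covariate the median was -0.78.

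**Figure D4:**
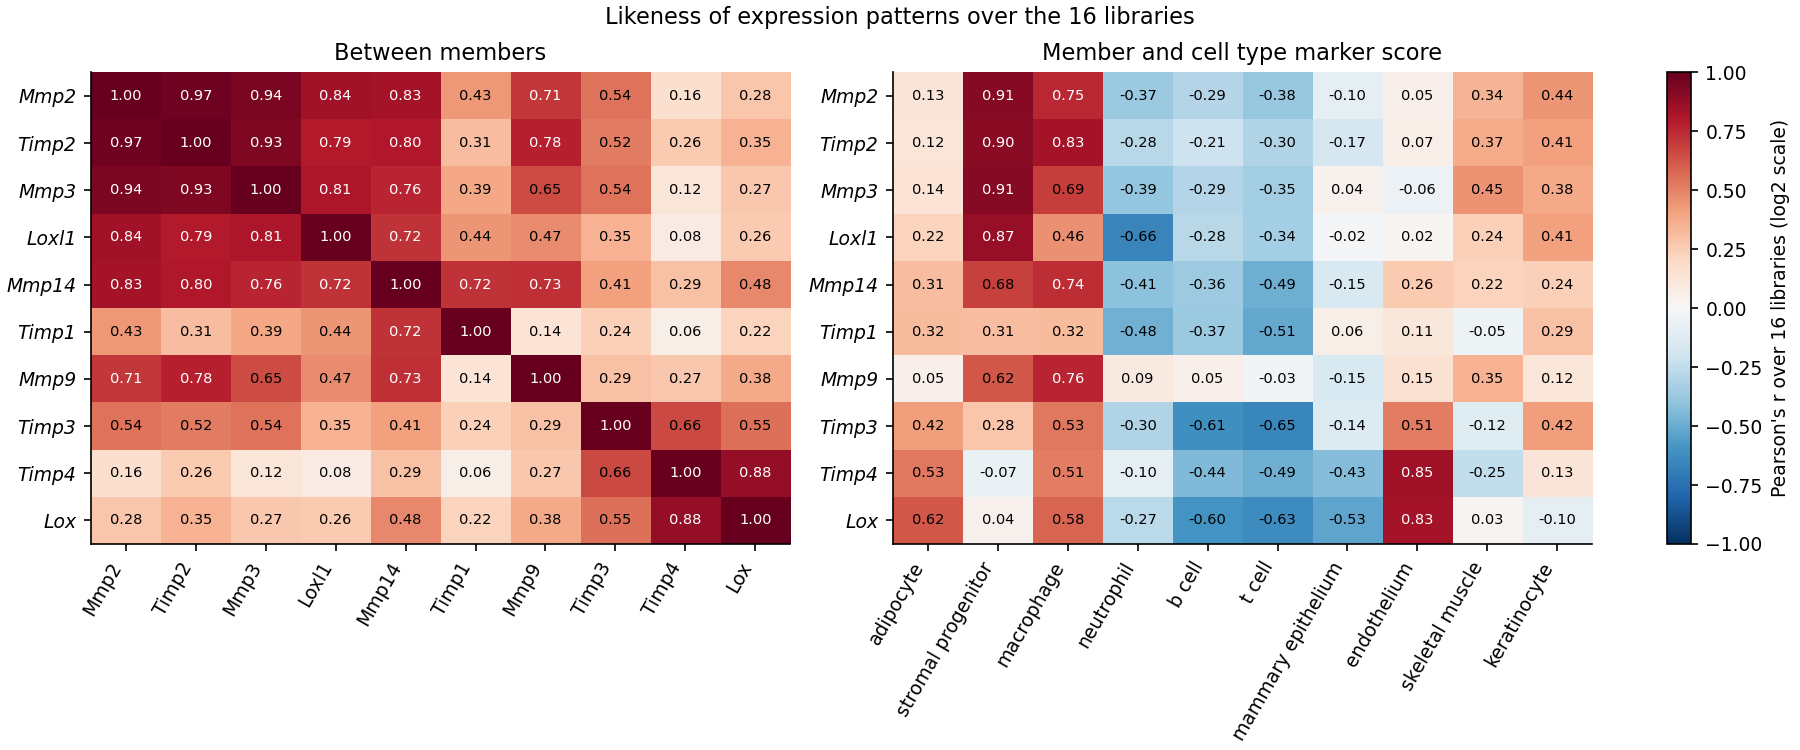
Pearson's r over the 16 libraries between the 10 genes (left) and between each gene and 10 cell type marker scores (right), on the log2 scale, from blue (-1) to red (1). Mmp2, Timp2, Mmp3 and Loxl1 form a block at the upper left and follow the stromal progenitor score (0.87 to 0.91), and Timp4 and Lox follow the endothelial score (0.85 and 0.83).

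The 3 tested genes most like each member, by Pearson's r over the 16 libraries, included Dcn for Mmp2, Timp2 and Mmp3, while Timp4 and Lox had none in common and Loxl1 had none in common with Mmp2, Timp2 or Mmp3. Those of Mmp2 were Timp2 (0.966), Dcn, which encodes the collagen-binding proteoglycan decorin (0.964), and Lrrn4cl (0.964), and those of Timp2 were Dcn (0.971), Mmp2 (0.966) and Galnt16 (0.961). Mmp3 was most like Sdk1 (0.969), Gpc3 (0.960) and Dcn (0.955), and Loxl1 most like Mrgprf (0.956), Dbn1 (0.953) and C1qtnf2 (0.950). Mmp9 was most like Clec10a (0.914), Fcna (0.891) and the mannose receptor gene Mrc1 (0.869), known from macrophages, and Mrc1 is also in the macrophage list. Mmp14 was most like Tnfaip6 (0.942), Plat (0.931), which encodes tissue plasminogen activator, and Ddost (0.927). Timp1 had Sdc1 (0.870), Vcan (0.845), the gene of the proteoglycan versican, and Spire2 (0.831), and Timp3 had Tgfbr3 (0.872), Exoc6b (0.868) and Ntn1 (0.865). Timp4 was most like Tacc1 (0.952), Fam124a (0.944) and Rapgef3 (0.924), and Lox most like Hip1 (0.954), Gab2 (0.950) and Creb3l2 (0.946).

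The 10 genes were set beside 101 tested genes of the wider matrix machinery, from 111 listed. In DIO-VSG relative to DIO-HFD 38 of the 101 had a lower level at an unadjusted P below 0.05 and 0 a higher one, with a median log2 fold change of -0.63, and none passed the limma adjusted P (smallest 0.243). The share of 8.12% of all genes is the background here too. By role, 10 of 18 matrix substrates were lower at that threshold (median -1.02), 9 of 22 crosslinking and assembly genes (-0.56), 6 of 24 ADAM and ADAMTS genes (-0.62), 5 of 10 other protease inhibitors (-0.73), 5 of 13 other metalloproteinases (-0.42) and 3 of 14 serine and cysteine proteases (-0.37). The 38 became 10 in the 12 libraries of higher B cell score, where 2.48% of all genes were lower at that threshold, and 17 once the B cell score was a covariate (4.17% of all genes). They became 18 without DIO-HFD replicate 3 (4.78%), 20 without DIO-HFD replicate 2 (4.45%), 24 without DIO-VSG replicate 1 (5.82%) and 24 without DIO-VSG replicate 3 (4.84%).

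Of these 101, the 8 genes of smallest P in that comparison were Eln, the elastin gene and a lysyl oxidase substrate (log2 fold change -1.20, SE 0.24, limma unadjusted P 0.000179), the elastic fiber genes Fbln2 (-1.53) and Fbln5 (-1.59), the aggrecanase gene Adamts5 (-1.93), whose product is inhibited by Timp3, the macrophage elastase gene Mmp12 (-2.18), the protease gene Prss23 (-1.08), the laminin gene Lamc1 (-0.89) and Serping1, which encodes the C1 inhibitor (-1.19). The limma adjusted P of the 8 was 0.243 to 0.274. Of the 13 other metalloproteinase genes, 4 had a higher mean log2 level in DIO-VSG, named after their values were seen: Mmp7 (1.29), Mmp25 (1.30), the neutrophil collagenase gene Mmp8 (0.75) and Mmp15 (0.13), with limma unadjusted P of 0.133, 0.113, 0.488 and 0.591.

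**Figure D5:**
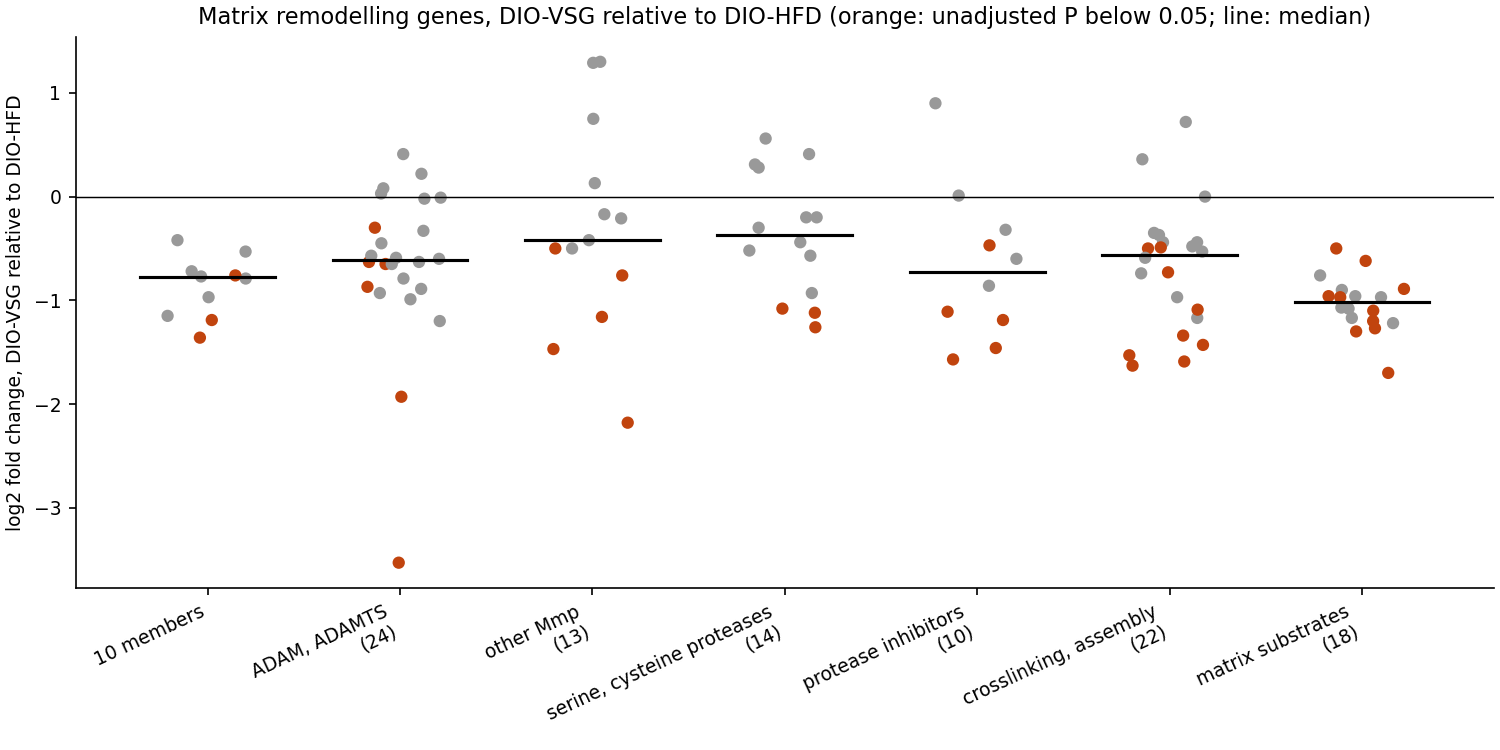
Log2 fold change in DIO-VSG relative to DIO-HFD of the 10 genes and of 101 other tested matrix genes by role (number tested in brackets), 1 point a gene, with a line at the median and orange for an unadjusted P below 0.05. The 10 genes (median -0.78) and the 18 matrix substrates (-1.02) lie below 0 without exception, while other metalloproteinases reach from -2.18 to 1.30; the lowest point is the low-count gene Adamts16 (-3.53).

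In the other comparisons fewer of the 101 had an unadjusted P below 0.05. In DIO-VSG relative to DIO-LFD 17 were lower and 1 higher (5.41% and 4.30% of all genes), led by Eln (-1.13), Adamts15 (-1.0), Adamts4 (-2.24), Adamts9 (-0.94) and the lysyl hydroxylase gene Plod1 (-0.72), with Plod2 (-0.91), Plod3 (-0.54) and Tgm2 (-0.78) next. In DIO-VSG relative to CON-LFD 10 were lower and 3 higher (7.55% and 10.2% of all genes), led by Adamts15 (-0.95), the laminin gene Lamb1 (-0.76), Adamts3 (-0.90), Eln (-0.62), Loxl3 (-0.65), Adamts7 (-0.68), Mmp25 (1.90) and Lamc1 (-0.66). In DIO-HFD relative to CON-LFD 11 were higher and 1 lower (5.23% and 7.66% of all genes), led by Adamts10 (0.45), Adam8 (1.49), Mmp12 (1.69), Plaur (1.18), Tll1 (0.49), Eln (0.58), Mmp23 (0.74) and Fbln5 (0.94). In DIO-LFD relative to DIO-HFD 3 were higher and 5 lower (5.37% and 3.16% of all genes), among them the transglutaminase gene Tgm2 (1.15), Adamts10 (-0.60), Adamts5 (-1.42) and Mmp12 (-1.67). Relative to CON-LFD, DIO-LFD had 3 higher, Tgm2 (0.93), Adamts4 (2.08) and Adam8 (1.16), and 1 lower, Postn (-0.96), against 3.23% and 3.03% of all genes. The smallest limma adjusted P among the 101 was 0.237 to 0.559 over these 5 comparisons.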

How the data were processed

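RNA from 16 fat pads (4 groups of 4) was sequenced by the submitters with a stranded total RNA kit. The submitters' processing notes name TopHat2 2.0.7, HTSeq 0.5.3p9, DESeq2 and mm10, while the study's methods name STAR and salmon for alignment and counting, and which made the table was not settled. The deposited table is named as normalized counts, but the values the authors deposited are on a variance-stabilized log2 scale (5.36 to 21.85). The scale was inverted exactly to normalized counts, and division by each library's step gave whole reads for 100.0% of values (tolerance 0.02), with size factors of 0.9036 to 1.2204, so the planned test on log2(normalized count + 1) was kept. Genes that reached 10 normalized counts in 4 or more libraries were tested using limma 3.58.1 (limma-trend, R 4.3.3, two-sided), all 4 groups in 1 fit, with Benjamini-Hochberg adjustment over 21218 genes in each comparison. Fold changes are on that log2 scale. Likeness between genes is a description with no test.

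All 10 genes were named, with the full test printed for those of unadjusted P below 0.05 and the largest difference in each comparison. Of the wider lists, up to 8 genes a comparison of smallest P with a mean of at least 100 normalized counts were named, and the 3 genes of highest r for each member. Members and lists were chosen with earlier results of these data known. The labels give each library a number of its own, read as 1 mouse a library though not stated to be, and do not say that replicate numbers pair mice across groups; P values measure the spread between these samples, and replicates of a group differed by far more than counting noise. Sequences are from RefSeq and positions from GENCODE M21. The fit was tested on simulated data. Alternatives were quantile or library total scaling, pseudocounts of 5 and 0.1, no filter, the deposited scale, limma-voom, 2-group fits, a replicate block, library weights, marker scores as covariates, and leaving out each library; the stromal progenitor and adipocyte covariates, the 12-library fit and the counts of wider matrix genes were added after the data were seen. Wap, Mmp1b, Mmp20, Mmp21 and Acan were listed but not analysed here, and Mmp1a, Mmp10, Mmp24, Plg, Serpinf2 and Tll2 did not pass the filter on low values.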

Additional observations from a re-analysis of the deposited data

Results flagged for a closer look

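Among 40 sets of 4 libraries (10 genes in 4 groups), 3 held a library set apart from the others on the log2 scale, where chance alone sets apart about 1 set in 20. Timp4 in DIO-VSG replicate 3 (1405 normalized counts, the others 3276 to 3434) had a gap of 0.947 of the group's range. Timp4 in CON-LFD replicate 1 (2949, the others 4400 to 4661) had a gap of 0.874. Timp1 in DIO-LFD replicate 2 (281, the others 77.5 to 93.4) had a gap of 0.856.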

How the results depend on the processing

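The numbers of the 10 genes with an unadjusted P below 0.05 depended on the setting. In brackets is the share of all genes at that threshold in the same fit, in either direction. In DIO-VSG relative to DIO-HFD the 3 (13.2%) became 5 with library total scaling (14.3%), 6 with library weights (33.9%) or only the 2 groups compared (12%), 1 with the B cell covariate (10.2%) or in 12 libraries (6.95%), and 1 to 6 with 1 library left out (7.47 to 27.5%; 1 without DIO-HFD replicate 2 or 3 or DIO-VSG replicate 3). Relative to DIO-LFD the 1 (9.71%) became 2 with quantile normalization (10.9%) or the stromal covariate (9.8%), 8 with library weights (25.9%) and 1 to 4 with 1 library left out (5.11 to 13.3%). Relative to CON-LFD the 1 (17.8%) became 2 in the 2-group fit (20.7%) or with the stromal covariate (16%), 4 with library weights (37.4%), 0 in 12 libraries (5.12%) and 1 to 3 with 1 library left out (8.95 to 30.5%). In DIO-HFD relative to CON-LFD the 0 (12.9%) became 1 with library weights (37.5%) and 2 with the adipocyte covariate (16.9%), and for DIO-LFD against DIO-HFD (8.53%) 2 with library weights (26.4%). In DIO-LFD relative to CON-LFD (6.26%) it became 1 with the stromal covariate (6.68%) and 0 to 1 with 1 library left out (3.96 to 12.5%). The cause was not tested. Adjusted P fell below 0.05 with library weights only, for 5 genes when DIO-VSG was set against DIO-HFD (Timp3 0.00257, Timp4 0.0141, Timp2 0.0304, Mmp2 0.0321 and Loxl1 0.0395 by limma) and for Timp3 relative to CON-LFD (0.0497). In the same weighted fits 17.6% of all tested genes (3739 of 21218) and 19.9% (4226) passed, so these calls are read against that share. Timp1 in DIO-LFD against DIO-HFD turned from -0.51 to 0.18 in the 12 libraries. The 38 lower matrix genes became 17, 10 and, with 1 library left out, 18 to 48 (4.45 to 13.3% of all genes lower). With the replicate block the 3 became 4, Lox losing its limma P below 0.05 (0.0709), and no other count of the 10 moved. Deviations from group means had correlations of -0.609 to 0.534 between same-numbered libraries. Between differently numbered libraries of different groups they were -0.628 to 0.742. These overlapping ranges do not settle whether the numbers pair mice.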
